A study of Mus musculus with 219 samples.

Results

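The genes described here are 10 genes of the Atf4 stress response, chosen by symbol out of the 32285 genes of each count table: Atf4, Ddit3, Asns, Chac1, Trib3, Sesn2, Slc7a11, Psat1, Phgdh and Ddit4. The 10 symbols stand on 11 rows, because Ddit3 is listed a second time as a short overlapping locus that had 0 counts in every library and was set aside. The mouse embryos came from B6C3F1 oocytes and CD1 sperm, and each oocyte had received a single sperm head by intracytoplasmic sperm injection (ICSI) opposite the meiotic spindle (contralateral, Co), between the poles (equatorial, Eq) or beside it (ipsilateral, written isolateral in the sample labels, Is). All embryos were cultured in KSOM medium with amino acids, and no embryo fertilised without ICSI is part of these samples. Sister blastomeres of 55 embryos at the 2-cell stage (21 Co, 21 Is, 13 Eq) and blastocysts were each sequenced as single specimens, where a blastocyst was either intact (31 embryos: 11 Co, 8 Is, 12 Eq) or 1 of the twins grown from separated sister blastomeres (19 pairs: 6 Co, 7 Is, 6 Eq). A twin therefore started from 1 of the 2 cells of its embryo and was cultured alone in a well after bisection, whereas an intact blastocyst came from a 2-cell embryo that was not bisected.

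Atf4 is a transcription factor of the basic leucine zipper family. Its mRNA is translated more efficiently when kinases phosphorylate the initiation factor eIF2, which happens when amino acids are scarce or when unfolded proteins accumulate in the endoplasmic reticulum, and this arm is known as the integrated stress response. Atf4 then acts with partners of the C/EBP family on genes for amino acid synthesis and uptake, for redox balance and for feedback control. The count tables measure mRNA, so the regulation of Atf4 at translation is outside what was measured.

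The sequences below show where the composite element that C/EBP and Atf4 dimers bind can be read near the starts of these genes. The motif TGATGNAA was searched on both strands in the RefSeq window from 250 bases before to 50 bases after each start (GRCm38.p6), and all 10 genes had a window. It was present in the windows of 4 of the genes, Asns, Chac1, Trib3 and Slc7a11, against 3.97% of 32851 windows of the same length over all genes. Each is printed 5′ to 3′ on the strand of the gene, with the motif in capitals.
Asns (chr6:7693160-7693459, minus strand): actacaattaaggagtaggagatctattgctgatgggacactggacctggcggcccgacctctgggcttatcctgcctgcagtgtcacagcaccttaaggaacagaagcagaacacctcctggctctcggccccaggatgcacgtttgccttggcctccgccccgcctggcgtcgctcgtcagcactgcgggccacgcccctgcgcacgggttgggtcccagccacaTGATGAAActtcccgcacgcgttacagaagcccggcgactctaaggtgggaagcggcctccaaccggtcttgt
Chac1 (chr2:119350992-119351291, plus strand): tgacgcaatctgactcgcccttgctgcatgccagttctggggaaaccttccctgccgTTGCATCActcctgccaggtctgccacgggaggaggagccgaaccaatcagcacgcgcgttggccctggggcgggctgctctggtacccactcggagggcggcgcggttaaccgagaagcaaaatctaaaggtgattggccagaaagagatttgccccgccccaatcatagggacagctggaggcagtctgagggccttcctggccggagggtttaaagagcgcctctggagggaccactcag
Trib3 (chr2:152344011-152344310, minus strand): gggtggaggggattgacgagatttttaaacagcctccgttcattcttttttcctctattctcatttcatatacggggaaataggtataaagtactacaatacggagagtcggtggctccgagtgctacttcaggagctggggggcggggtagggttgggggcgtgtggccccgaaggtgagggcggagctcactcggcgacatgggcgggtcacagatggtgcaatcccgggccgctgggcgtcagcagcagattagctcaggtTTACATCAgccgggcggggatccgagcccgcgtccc
Slc7a11 (chr3:50443564-50443863, minus strand): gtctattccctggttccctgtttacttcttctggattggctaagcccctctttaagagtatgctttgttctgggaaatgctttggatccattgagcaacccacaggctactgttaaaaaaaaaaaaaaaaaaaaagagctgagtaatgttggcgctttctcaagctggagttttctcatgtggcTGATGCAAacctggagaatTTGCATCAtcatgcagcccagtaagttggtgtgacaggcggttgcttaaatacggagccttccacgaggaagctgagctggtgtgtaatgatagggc
The match began 23 bases before the start in Asns, 193 bases before it in Chac1 and 14 bases past it in Trib3. Slc7a11 held a pair of matches on opposite strands, 66 and 47 bases before the start. A match describes letters in the window and is not a measured binding site. The other 6 genes, Atf4, Ddit3, Sesn2, Psat1, Phgdh and Ddit4, had no match in these windows. The genes were chosen as genes of the Atf4 response, and whether a match goes with the differences reported below was not tested.

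The blastocysts differed in depth by kind, which bears on every comparison between them. Intact blastocysts had 234099 to 1254428 counts per library and twins 713410 to 2161062, and blastomeres of the 55 pairs had 360474 to 2100561. Of the intact libraries 6 were under 500000 counts, against 0 of the 38 twin libraries. All blastocysts were on 1 plate with intact and twin specimens in separate blocks of wells, so position on the plate and kind cannot be told apart. The specimens carried the markers of their labelled stage. Levels are given as CPM, the counts of a gene after its library was scaled to a total of 1000000 counts. The 8 trophectoderm markers summed to 3161 to 6602 CPM in intact blastocysts and 3031 to 4314 CPM in twins. The 8 oocyte markers summed to 2014 to 3760 CPM in blastomeres and to at most 42.7 CPM in blastocysts, and the 8 cumulus markers to at most 66.8 CPM in blastomeres (median 4.71) and 8.37 CPM in blastocysts. The share of mitochondrial counts had a median of 1.83% in intact and 1.45% in twin blastocysts, and of 1.24% in equatorial, 1.52% in contralateral and 1.51% in ipsilateral blastomeres, and its part in the differences was not tested.

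The first comparison asked whether blastocysts grown from a single sister blastomere differed from intact ones. In the blastocysts from separated blastomeres, 7 of the 9 genes that passed the filter on low counts were lower than in intact blastocysts and 0 were higher: Atf4, Asns, Chac1, Trib3, Sesn2, Psat1 and Ddit4. Ddit3 and Phgdh were called in neither direction, and Slc7a11 did not pass the filter. Over all 9379 genes tested 21.9% were called lower and 20.4% higher, so a difference by itself was common. The counts of both twins were added to give 1 value per embryo. A twin value thus pools both twin libraries, whereas an intact value comes from 1 library. Ranges of twin embryos are therefore narrower than ranges of single twin libraries, which bears on counts of embryos beyond the other range. The test was edgeR's quasi-likelihood test with the ICSI site as a covariate and Benjamini-Hochberg adjustment over all genes tested (threshold 0.05). The median log2 fold change of the 9 genes was -1.02 and that of all genes tested was -0.01.

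**Figure D1:**
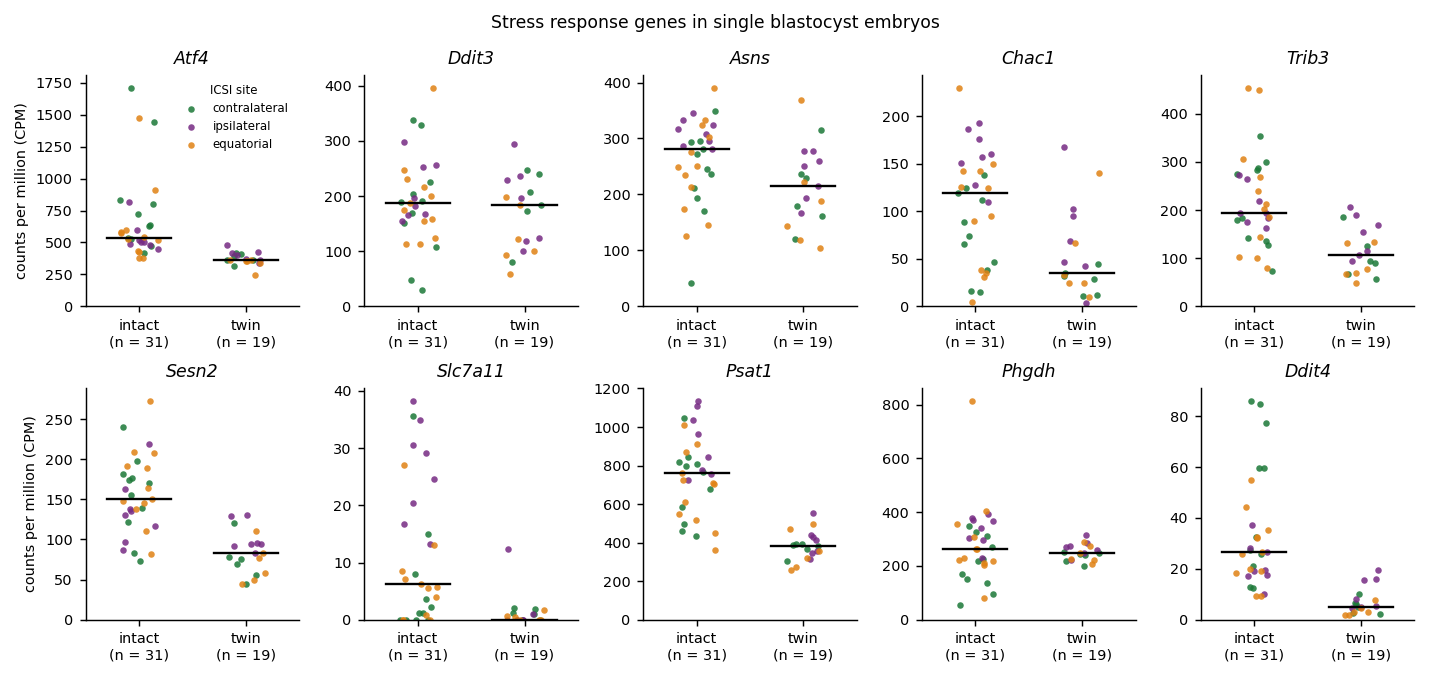
CPM of each gene (vertical axis, linear, from 0) in 31 intact blastocysts and 19 twin embryos (both twins added), 1 point per embryo, coloured by ICSI site, with bars at the medians. The twin medians of Atf4 (364), Psat1 (381) and Ddit4 (5.04) lie below the intact medians (531, 759 and 26.5), whereas those of Ddit3 (184 and 188) are close together.

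Atf4 itself (ENSMUSG00000042406, chr15:80255184-80257541, plus strand) had 247 to 480 CPM in twin embryos with a median of 364, and 377 to 1711 CPM in intact blastocysts with a median of 531. All 19 twin embryos were below the intact median and 12 were below the lowest intact blastocyst, although the ranges overlapped. Single twin libraries had 230.4 to 519.7 CPM of Atf4. The log2 fold change was -0.92 (SE 0.15, adjusted p = 2.3e-06, edgeR), a 1.89-fold lower level. Atf4 was higher in the shallow libraries, with ranges that overlapped: the 6 intact blastocysts under 500000 counts had 722 to 1711 CPM and the other 25 had 377 to 835 CPM. The number of Atf4 counts itself differed less between these libraries, with 228 to 468 in the shallow and 257 to 660 in the deeper ones. The depth covariates were the log2 of the mean total count and the mean number of detected genes over the libraries of an embryo. They thus describe single libraries, whereas the tested counts were added over both twins. With these covariates the log2 fold change shrank to -0.22 (SE 0.09, adjusted p = 0.059, edgeR) and the call was lost. Without the 6 libraries it was -0.62 (SE 0.08, adjusted p = 1.4e-08, edgeR), and with the covariates but without these libraries, an analysis chosen after seeing the data, it was -0.29 (SE 0.09, adjusted p = 0.0094, edgeR).

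Psat1 and Phgdh encode consecutive enzymes of serine synthesis, phosphoserine aminotransferase and phosphoglycerate dehydrogenase, and Asns encodes asparagine synthetase. Psat1 (ENSMUSG00000024640, chr19:15904678-15947337, minus strand) had 255 to 556 CPM in twin embryos with a median of 381, and 362 to 1135 CPM in intact blastocysts with a median of 759. Of the 31 intact blastocysts, 24 were above the highest twin embryo. Single twin libraries had 161.9 to 639.97 CPM of Psat1. On the log2 scale the fold change was -1.11 (SE 0.11, adjusted p = 5.8e-13, edgeR), and it stayed at -0.93 (SE 0.12, adjusted p = 1.4e-08, edgeR) with the depth covariates. Psat1 was about equally high in the 6 shallow intact libraries (median 676 CPM) and the 25 deeper ones (median 759 CPM).

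Phgdh (ENSMUSG00000053398, chr3:98313170-98339990, minus strand), the first enzyme of the same pathway, had 200 to 314 CPM in twin embryos with a median of 248, and 55.3 to 813 CPM in intact blastocysts with a median of 264. The intact values thus extended beyond the twin values at both ends, also beyond those of single twin libraries (139.1 to 319.8 CPM). The intact extremes came from the 6 shallow libraries (55.3 to 813 CPM), and the other 25 had 136 to 405 CPM. Over all libraries Phgdh had a log2 fold change of -0.25 (95% interval -0.53 to 0.04, adjusted p = 0.17, edgeR), and -0.00 (95% interval -0.34 to 0.33) with the depth covariates. Without the shallow libraries and without depth covariates Phgdh was called lower in twins. Asns (ENSMUSG00000029752, chr6:7675169-7693254, minus strand) had 104 to 370 CPM in twin embryos with a median of 216, and 42.4 to 391 CPM in intact blastocysts with a median of 282. The ranges of Asns overlapped nearly throughout, with 1 intact blastocyst above the highest twin embryo. Its log2 fold change was -0.43 (SE 0.14, adjusted p = 0.012, edgeR) without and -0.17 (SE 0.16, adjusted p = 0.47, edgeR) with the depth covariates.

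Ddit4, Sesn2, Trib3 and Chac1 are targets with roles in feedback and growth control. Ddit4 (ENSMUSG00000020108, chr10:59949669-59951834, minus strand; also known as Redd1) is an inhibitor of mTORC1 signalling. It had the largest fold among the 9 genes, with 1.65 to 19.5 CPM in twin embryos (median 5.04) and 9.23 to 86.003 CPM in intact blastocysts (median 26.5). Of the 19 twin embryos 15 were below the lowest intact blastocyst. Single twin libraries had 0 to 27.09 CPM of Ddit4. For Ddit4 the log2 fold change was -2.42 (SE 0.34, adjusted p = 2.8e-08, edgeR), and -1.88 (SE 0.33, adjusted p = 9.6e-06, edgeR) with the depth covariates. Its counts were low, with a median of 5 per twin library and 16 per intact library, so single values are imprecise. The 6 shallow intact libraries had 27.4 to 86.003 CPM of Ddit4 and the 25 deeper ones 9.23 to 77.4 CPM.

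Sesn2 (ENSMUSG00000028893, chr4:132492032-132510501, minus strand) encodes Sestrin2, a leucine sensor upstream of mTORC1. It had 44.2 to 130 CPM in twin embryos (median 82.8) and 72.6 to 273 CPM in intact blastocysts (median 150.2). Of the 31 intact blastocysts 23 were above the highest twin embryo. Single twin libraries had 33.04 to 156.1 CPM of Sesn2, so fewer intact blastocysts lay above the highest of these. The log2 fold change was -1.02 (SE 0.15, adjusted p = 1.4e-07, edgeR) and -1.03 (SE 0.17, adjusted p = 3.0e-06, edgeR) with the depth covariates. Sesn2 shares 6089 bases of its locus with Gm12981 on the same strand, a gene with 194 counts in all blastocysts together.

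Trib3 (ENSMUSG00000032715, chr2:152337422-152344032, minus strand) encodes a pseudokinase that restrains Atf4 activity. It had 47.6 to 207 CPM in twin embryos (median 105.8) and 74.1 to 454 CPM in intact blastocysts (median 195). Its log2 fold change was -1.08 (SE 0.19, adjusted p = 5.0e-06, edgeR), and -0.48 (SE 0.19, adjusted p = 0.051, edgeR) with the depth covariates. As with Atf4, the shallow intact libraries were high in Trib3, at 180 to 454 CPM against 74.1 to 307 CPM in the deeper ones.

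Chac1 (ENSMUSG00000027313, chr2:119351229-119354381, plus strand) encodes an enzyme that degrades glutathione. It ranged from 3.36 to 168 CPM in twin embryos (median 35.5) and from 5.13 to 230 CPM in intact blastocysts (median 118.8). Its log2 fold change was -1.27 (SE 0.30, adjusted p = 4.0e-04, edgeR) and -1.14 (SE 0.37, adjusted p = 0.016, edgeR) with the depth covariates. With these covariates and without the 6 shallow libraries it was -1.04 (SE 0.45, adjusted p = 0.076, edgeR).

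Ddit3 (ENSMUSG00000025408, chr10:127290774-127296288, plus strand) encodes Chop, a C/EBP-related factor linked to cell death under prolonged stress. It had 57.997 to 295 CPM in twin embryos (median 184) and 29.9 to 397 CPM in intact blastocysts (median 188). Its log2 fold change was -0.34 (95% interval -0.68 to 0.00, adjusted p = 0.11, edgeR). Ddit3 shares 68 bases with Mars and 15 with Gm4189 on the opposite strand, and because the counting did not use strand, reads from these stretches cannot be told apart.

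Slc7a11 (ENSMUSG00000027737, chr3:49892526-50443614, minus strand) encodes the transporter that exchanges cystine for glutamate. It was at 0 in 10 of 19 twin embryos and in 7 of 31 intact blastocysts, with at most 12.3 CPM in the former and 38.3 CPM in the latter. All 8 ipsilateral intact blastocysts had 13.2 to 38.3 CPM, against 0 to 35.6 CPM in contralateral ones (median 1.14) and 0 to 27.1 CPM in equatorial ones (median 5.70). These ranges overlapped and rest on at most 27 counts per library. The ICSI site was not called for Slc7a11 in intact blastocysts. In a fit without the filter on low counts its log2 fold change was -3.26 (SE 0.60, adjusted p = 1.3e-05, edgeR), a value that rests on a median of 0 counts per twin library.

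**Figure D2:**
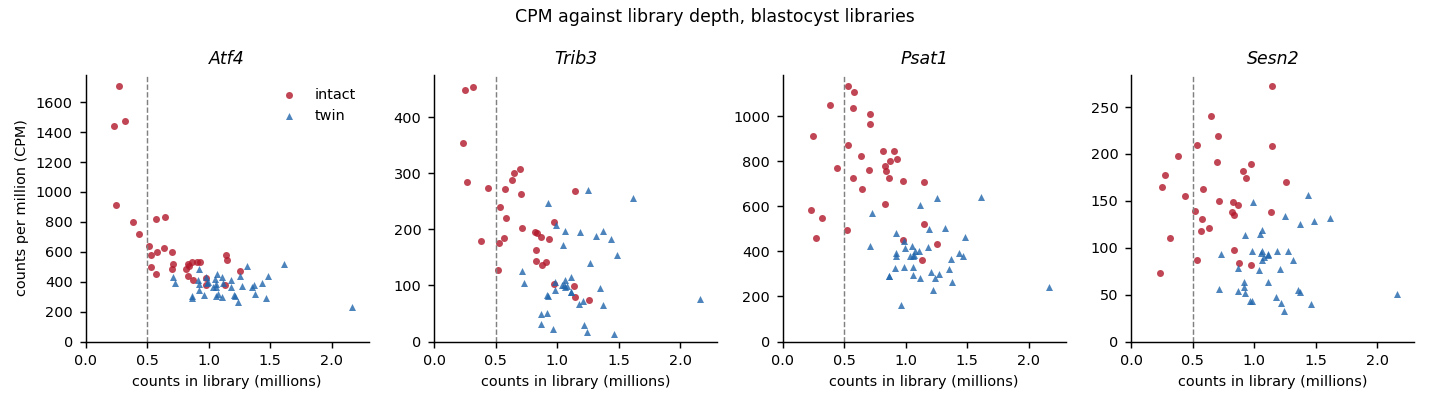
CPM (vertical axis, linear, from 0) of Atf4, Trib3, Psat1 and Sesn2 against the total count of the library (axis labelled in units of 1000000 counts), for 31 intact (circles) and 38 twin (triangles) blastocyst libraries, with a dashed line at 500000 counts. Atf4 has 722 to 1711 CPM in the 6 intact libraries left of the line and 377 to 835 CPM in the 25 to the right of it. Psat1 has medians of 676 and 759 CPM in these intact libraries.

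With the depth covariates 4 of the 9 genes were called, all lower in twins: Chac1, Sesn2, Psat1 and Ddit4. Over all genes tested 16.4% were then called lower. When every embryo was thinned to 500000 counts, which left 19 twin embryos and 25 intact blastocysts, 8 of the 9 genes were called lower, all but Asns, and 24.9% of all genes tested were lower. Without the 6 shallow libraries and without thinning, 9 of 9 were called lower, against 24.2% of all genes. With the depth covariates and without these libraries 5 of 9 were lower, Atf4, Trib3, Sesn2, Psat1 and Ddit4, against 16.5% of all genes. Sesn2, Psat1 and Ddit4 were thus called under each of the 5 treatments of depth. These treatments were not independent of each other. Thinning drew counts at random, which leaves the expected CPM of a gene unchanged, and it kept the same embryos as dropping the shallow libraries. Depth and kind were partly confounded, and the part of depth in the differences of Atf4, Asns and Trib3 was not tested further.

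**Figure D3:**
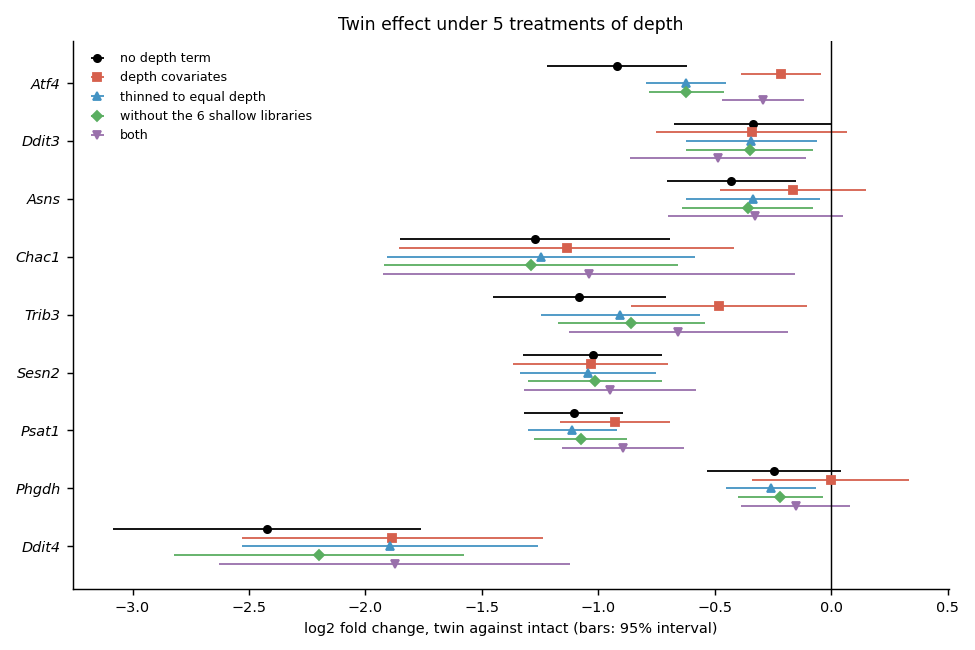
Log2 fold change of 9 genes in twin against intact blastocysts (horizontal axis, bars are 95% intervals) under 5 treatments of depth. The values of Sesn2 lie between -1.05 and -0.95 under all of them, whereas Atf4 moves from -0.92 without a depth term to -0.22 with depth covariates.

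The twin effect was then estimated within each ICSI site. After equatorial ICSI 5 of the 9 genes were called lower in twins (9.05% of all genes were called lower), after contralateral ICSI 6 (11.2%) and after ipsilateral ICSI 1 (6.33%), which was Psat1. Psat1 had log2 fold changes of -1.03 (SE 0.19, Eq), -1.05 (SE 0.19, Co) and -1.25 (SE 0.19, Is). Ddit4 had log2 fold changes of -3.03 (SE 0.54, Eq), -3.17 (SE 0.55, Co) and -1.12 (SE 0.49, Is), and Sesn2 had -1.38 (SE 0.25, Eq), -1.21 (SE 0.25, Co) and -0.47 (SE 0.25, Is). All 6 shallow intact libraries were contralateral or equatorial. Without them, in a fit chosen after seeing the data, the genes called lower were 5 of 9 (Eq, 10.5% of all genes), 6 of 9 (Co, 10.3%) and 2 of 9 (Is, 11.3%, Atf4 and Psat1), and the log2 fold changes of Ddit4 were -2.88, -2.73 and -1.14. The difference of the twin effect between sites was called for 0 of the 9 genes and for 0.0% of all genes (edgeR F-test), and DESeq2 called 0 as well. At an unadjusted p below the threshold 2 of the 9 differed, Ddit4 (p = 0.0062) and Sesn2 (p = 0.024), both with an adjusted p of 1.00 in the edgeR test, and 1.89% of all genes did. Without the shallow libraries Ddit4 (p = 0.021) and Sesn2 (p = 0.018) passed the edgeR F-test before adjustment, against 3.24% of all genes, and 0 of 9 were called. With depth covariates 0 of 9 passed before adjustment, against 1.56% of all genes. The ICSI site by itself was called for 0 of the 9 genes tested in twins and for 0 of 10 in intact blastocysts by edgeR and by DESeq2. Over all genes edgeR called 0.0% in each, and DESeq2 called 9 of 10995 genes in twins and 0 in intact blastocysts. Before adjustment 4 of 9 members passed in twins and 2 of 10 in intact blastocysts in edgeR, against 6.08% and 5.60% of all genes, and 4 and 3 in DESeq2, against 7.13% and 7.77%.

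The next comparison asked whether twins of 1 embryo resembled each other more than twins of other embryos of the same ICSI site. None of the 8 genes tested was called (edgeR F-test of the embryo term, 19 pairs), against 0.911% of 9773 genes. At an unadjusted p below the threshold 1 of the 8 passed, Asns (p = 0.0019, adjusted p = 0.11, edgeR), against 11.1% of all genes. DESeq2 called 1 of 8, against 7.53% of all genes. Without the filter on low counts edgeR called 5 of 10, against 4.39% of all genes. The share of the variance of log2(CPM + 1) that lay between embryos was 0.43 for Asns, 0.23 for Ddit3 and 0.16 for Sesn2, and it was below 0 for Atf4 (-0.05), Psat1 (-0.12), Phgdh (-0.25) and Trib3 (-0.30). The estimate falls below 0 where twins differ more from each other than embryos do, and its median over all genes tested was 0.10. Twins differed by a median of 0.34 in log2(CPM + 1) of Atf4 and by 1.46 in that of Chac1, which was counted in both twins of 16 pairs and in only 1 twin of 3 pairs. The total count of the library had a share of 0.26 between embryos.

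Sister blastomeres at the 2-cell stage were tested in the same way, within ICSI site and plate. Of the 8 genes tested over 55 pairs 3 were called, Atf4 (adjusted p = 0.0042, edgeR), Ddit3 (adjusted p = 0.0030, edgeR) and Sesn2 (adjusted p = 7.1e-04, edgeR), against 10.8% of 11712 genes. The share of the variance between embryos was 0.47 for Atf4, 0.63 for Ddit3 and 0.48 for Sesn2, while the median over all genes tested was 0.14. It was 0.36 for Trib3, 0.35 for Slc7a11 and 0.12 for Psat1, which were not called. Sisters differed by a median of 0.38 in log2(CPM + 1) of Atf4, 0.67 in that of Ddit3 and 0.54 in that of Sesn2. Sisters lay in neighbouring wells of a plate, and the part of position in their agreement was not tested. The total count had a share of 0.33 between embryos, and its part in the agreement was not tested. Nor was the difference between sisters and twins tested. When all 62 pairs were used, shallow blastomeres included, 0 of the 8 genes were called by edgeR, against 3.51% of all genes. Before adjustment 1 of the 8 passed, against 12.7% of all genes. Without the filter on low counts 5 of 10 were called in the 55 pairs, against 16.8% of all genes.

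**Figure D4:**
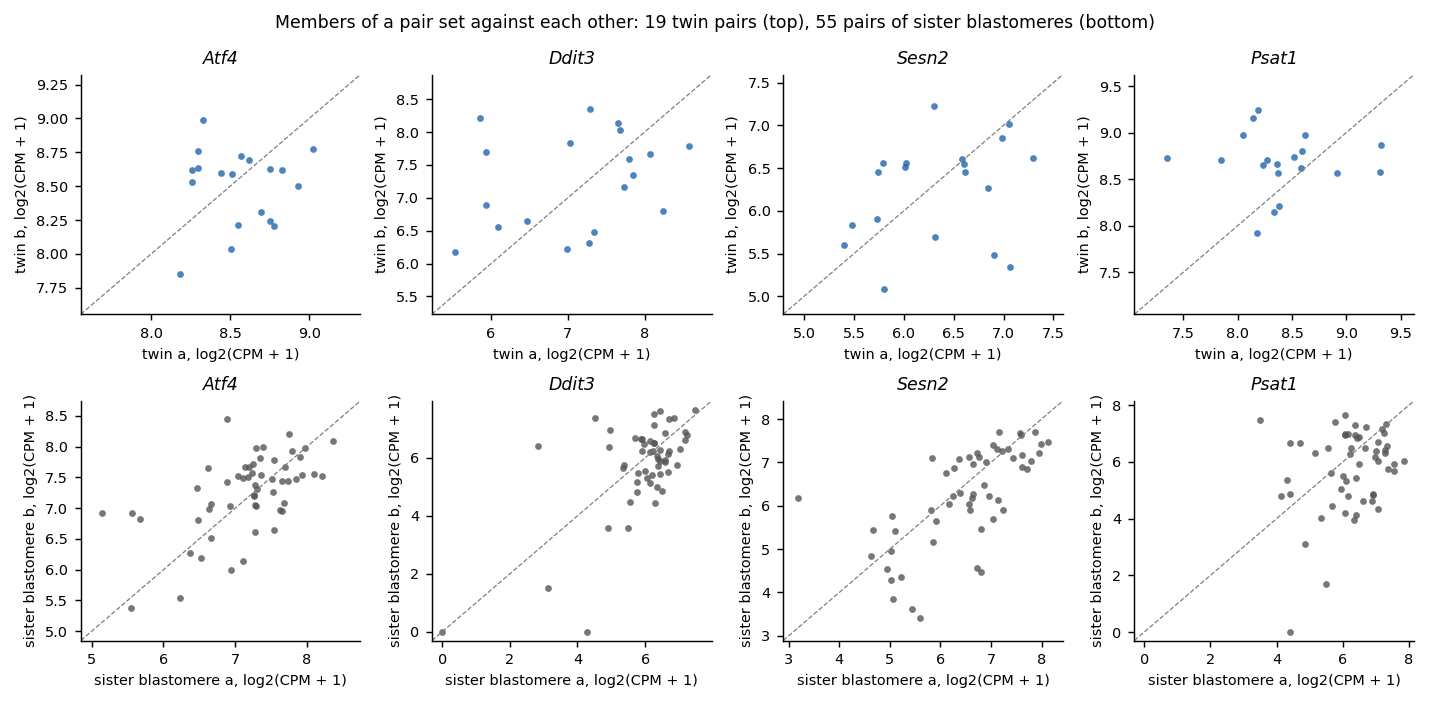
Log2(CPM + 1) of Atf4, Ddit3, Sesn2 and Psat1 in member a (horizontal axis) and member b (vertical axis) of 19 twin pairs (top) and 55 pairs of sister blastomeres (bottom), with the line of equality dashed. The share of the variance between embryos for Atf4 is -0.05 in twins and 0.47 in sisters.

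The levels of the genes differed between the stages, which lie in separate tables and are given side by side without a test. On a scale that accounts for exon length (TPM, in which every library sums to 1000000), Atf4 had the highest median of the 10 in intact blastocysts (660 TPM) and in twins (461 TPM), as well as in blastomeres (217 TPM). Psat1 followed in intact blastocysts (519 TPM), then Ddit3 (318 TPM) and Phgdh (311 TPM), and Slc7a11 was lowest (1.29 TPM). In blastomeres Ddit3 (137 TPM), Sesn2 (91.9 TPM) and Psat1 (58.8 TPM) followed Atf4. Neighbours in this order such as Ddit3 and Phgdh did not differ beyond their spread, with ranges in intact blastocysts of 50.1 to 614 TPM and 64.2 to 868 TPM. Asns and Chac1 had a median of 0 TPM in blastomeres, where Asns was at 0 counts in 85 of 110 and Chac1 in 74 of 110. Slc7a11 went the other way, with a median of 10.9 TPM in blastomeres.

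In the 2-cell embryos the question was whether the site of sperm deposition went with the level of these genes. Counts of sister blastomeres were added, and edgeR's quasi-likelihood test was run with the plate as a covariate. By the well labels, each ICSI site lay in its own rows of wells on each plate. Row and site therefore cannot be told apart in these comparisons. Against equatorial ICSI 2 of the 9 genes tested were lower after contralateral ICSI, Atf4 and Sesn2, and 0 were higher. Over all 13141 genes tested 6.06% were called lower and 7.12% higher. The same 2 genes were lower after ipsilateral ICSI and 0 were higher, against 3.22% and 3.43% of all genes. The 13 equatorial embryos serve as the reference in each of these comparisons, which are therefore not independent. Between contralateral and ipsilateral ICSI 0 of 9 were called by edgeR and by DESeq2, against 0.0% of all genes. In each 1 of 9 passed before adjustment, against 4.22% of all genes in edgeR and 5.197% in DESeq2.

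Atf4 had 152 to 308 CPM in the 13 equatorial embryos (median 209), 43.2 to 230 CPM in the 21 contralateral ones (median 143) and 88.1 to 229 CPM in the 21 ipsilateral ones (median 150.1). All 13 equatorial embryos were above the median of either other site, and 12 embryos of each of these sites were below the lowest equatorial one, so the ranges overlapped only in part. The log2 fold change of Atf4 was -0.65 (SE 0.15, adjusted p = 0.0020, edgeR) after contralateral and -0.56 (SE 0.16, adjusted p = 0.019, edgeR) after ipsilateral ICSI.

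Sesn2 had 76.6 to 219 CPM in equatorial embryos (median 160), 23.1 to 190 CPM in contralateral ones (median 46.1) and 36.4 to 167 CPM in ipsilateral ones (median 86.5). Its log2 fold change was -1.25 (SE 0.23, adjusted p = 1.7e-04, edgeR) after contralateral and -0.74 (SE 0.24, adjusted p = 0.0496, edgeR) after ipsilateral ICSI. The contralateral embryos were spread over the widest range, with 12 of 21 below the lowest equatorial embryo. Between contralateral and ipsilateral ICSI the log2 difference of Sesn2 was -0.52 (95% interval -0.94 to -0.09, p = 0.020, adjusted p = 1.00, edgeR).

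Psat1 had 42.9 to 143 CPM in equatorial, 8.87 to 159 CPM in contralateral and 23.2 to 149 CPM in ipsilateral embryos. Its log2 fold change after contralateral ICSI was -0.66 (SE 0.24, adjusted p = 0.054, edgeR). Slc7a11 was the only gene of the 9 besides Ddit3 and Chac1 with a positive log2 fold change in both comparisons, at 0.53 (SE 0.27, adjusted p = 0.20, edgeR) after contralateral and 0.36 (SE 0.27, adjusted p = 0.50, edgeR) after ipsilateral ICSI. Its medians were 38.5 CPM in equatorial, 60.9 CPM in contralateral and 47.04 CPM in ipsilateral embryos, with ranges that overlapped. Chac1, Phgdh and Ddit4 were counted at medians of under 10 CPM at each site.

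**Figure D5:**
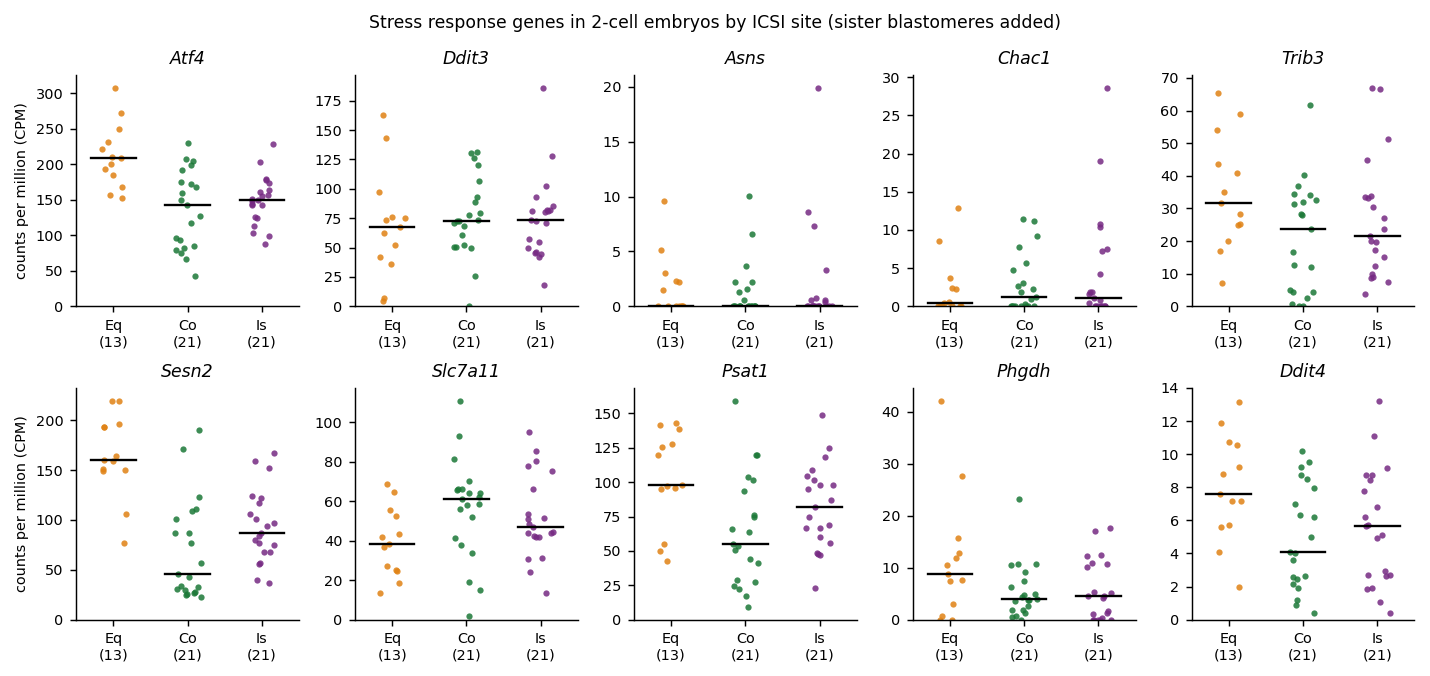
CPM of each gene (vertical axis, linear, from 0) in 2-cell embryos after equatorial (Eq, n = 13), contralateral (Co, n = 21) and ipsilateral (Is, n = 21) ICSI, 1 point per embryo with sister blastomeres added, and bars at the medians. The medians of Sesn2 are 160, 46.1 and 86.5 CPM, and those of Ddit3 are 67.6, 72.6 and 73.8 CPM.

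The 2 calls after ipsilateral ICSI were lost on plate 1 alone, which holds fewer embryos, and with depth covariates, while dropping the plate term left them called. Equatorial blastomeres had a lower median total (1108740 counts) than contralateral (1297280) and ipsilateral ones (1530270). On plate 1 alone the log2 fold changes of Atf4 and Sesn2 after ipsilateral ICSI were -0.55 (SE 0.19, adjusted p = 0.060, edgeR) and -0.78 (SE 0.27, adjusted p = 0.053, edgeR). There 0 of 9 genes were called, against 8.61% of all genes, and 2 of 9 passed before adjustment, against 22.1% of all genes. On plate 2 alone, with 2 equatorial, 3 contralateral and 8 ipsilateral embryos, a fit chosen after seeing the data gave log2 fold changes of -0.47 (SE 0.24) for Atf4 and -0.47 (SE 0.52) for Sesn2 after ipsilateral ICSI, and -0.42 (SE 0.29) and -0.99 (SE 0.61) after contralateral ICSI. These have the direction seen on plate 1, and edgeR called 0 genes in either comparison on plate 2. Before adjustment 0 of 10 members passed after contralateral and 1 after ipsilateral ICSI, against 5.63% and 5.98% of all genes. With depth covariates 0 of 9 were called by edgeR after ipsilateral ICSI, against 0.464% of all genes. Before adjustment 3 of 9 passed, against 12.6% of all genes. The log2 fold changes were then -0.49 for Atf4 and -0.64 for Sesn2. After contralateral ICSI the calls of Atf4 and Sesn2 held on plate 1 alone (log2 fold changes -0.67 and -1.27) and with the depth covariates (-0.61 and -1.19).

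Other genes of the pathway were counted from lists, to be read against the 21.9% of all genes that were lower and the 20.4% that were higher in twins. Like the 10 genes, the lists were chosen with earlier results of these data known, so their counts are descriptions and not independent support. Of the partner factors of Atf4 6 of 9 tested were lower in twins and 0 higher, led by Nupr1, a stress-induced chromatin protein (214 CPM ± 97.3 in 19 twin embryos and 497 ± 189 in 31 intact blastocysts, SD), and by Cebpa and Atf5, factors of the same family, with log2 fold changes of -1.76 and -2.07. Of the amino acid transport genes 9 of 10 were lower and 0 higher, among them the glutamine transporters Slc38a1 (log2 fold change -1.69) and Slc38a2 (-2.03) and the arginine transporter Slc7a1 (-1.54). Of the genes for amino acid and one-carbon synthesis 7 of 11 were lower and 1 higher: the mitochondrial enzymes Mthfd2 (-1.02) and Shmt2 (-1.16) fell, and Got1, an aspartate aminotransferase, rose by 0.86 on the log2 scale (276 CPM ± 40.3 in twin embryos and 145 ± 49.01 in intact blastocysts, SD). The depth covariates left 5 of 9, 5 of 10 and 7 of 11 lower, with 2 of the last list higher, against 16.4% of all genes lower.

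The next lists are also set against 21.9% of all genes lower and 20.4% higher in twins. In the tRNA synthetase list, which also holds a tRNA export gene, 13 of 21 were lower in twins and 0 higher. The folds were smaller, as for Nars (log2 fold change -0.77), Gars (-0.69) and Rars (-0.80). Of 15 other stress targets 11 were lower and 1 was higher, with Ndrg1 (-1.19) and the degradation factor Herpud1 (-1.55) lower and the autophagy gene Map1lc3b (0.98) higher. Genes of the endoplasmic reticulum chaperone arm, a list drawn up around Atf6 and Xbp1, were lower in 13 of 19 cases and higher in 1. Among the lower ones were the chaperones Hspa5 (-1.30) and Canx (-0.76) and the degradation adaptor Sel1l (-1.34). Of the eIF2 kinases, phosphatase subunits and eIF2B subunits 1 of 11 was lower, Ppp1r15b (-0.43), and 1 higher, Eif2b2 (0.75), in edgeR. DESeq2 called 4 of the 11 higher and 1 lower, and over all 9379 genes it called 2377 higher and 2076 lower. With the depth covariates 10 of 21, 10 of 15, 12 of 19 and 0 of 11 were lower, against 16.4% of all genes. In the same order 0, 2, 0 and 1 were higher, and 1128 of all 9379 genes were.

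In 2-cell embryos the lists were set against 13.2% of all genes called in either direction after contralateral and 6.65% after ipsilateral ICSI. After contralateral ICSI 6 of 11 genes of the eIF2 list were called, 5 lower and 1 higher, and 4 with depth covariates (3 lower and 1 higher), against 9.08% of all genes. Eif2ak3, the kinase Perk, had a log2 fold change of -0.94 (adjusted p = 0.0014, edgeR), and Eif2b1, a subunit of the exchange factor of eIF2, one of 1.02 (adjusted p = 2.4e-05, edgeR). Eif2b1 was also higher after ipsilateral ICSI, by 0.94 on the log2 scale (adjusted p = 3.0e-04, edgeR). The partner factor Nfe2l1 was the 1 gene of 6 called in its list after either, with log2 fold changes of -0.74 and -0.60, of which the second was no longer called with depth covariates (-0.35, adjusted p = 0.37, edgeR). In the ipsilateral comparison 2 of 11 genes of the eIF2 list were called, both higher, and the other was Eif2s1, the alpha subunit of eIF2 (0.53, and 0.21 and not called with depth covariates). Of the 10 tested genes for amino acid and one-carbon synthesis 1 was called, Cth, an enzyme of cysteine synthesis, with a log2 fold change of 0.63 after contralateral ICSI. Of the 18 tested genes of the endoplasmic reticulum chaperone arm 3 were called after contralateral ICSI, with Manf at 0.54, Calr at -0.58 and Canx at -0.31, and 2 after ipsilateral ICSI, Ern1 (-0.63) and Canx (-0.36). With depth covariates Canx was no longer called after contralateral ICSI, and after ipsilateral ICSI neither Ern1 nor Canx was called while Manf was (0.57). Of the 11 other stress targets tested, edgeR and DESeq2 called 0 in either comparison, with 0 at an unadjusted p below the threshold. Of the 21 genes of the tRNA synthetase list edgeR called 0 in either comparison, with 4 (contralateral) and 0 (ipsilateral) before adjustment, and DESeq2 called 1 and 0. Of the 7 transport genes edgeR called 0 in either, with 0 and 1 before adjustment, and DESeq2 called 0 and 1. Over all genes 26.03% (contralateral) and 19.6% (ipsilateral) passed before adjustment in edgeR. In DESeq2 16.97% and 9.84% of all genes were called, and 28.3% and 21.9% passed before adjustment.

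Markers of the lineages of the blastocyst differed between twin and intact blastocysts as well, beside 21.9% of all genes lower and 20.4% higher. Of the 7 epiblast markers tested 5 were higher in twins and 0 lower, led by Pou5f1 with a log2 fold change of 1.70. Of the 8 trophectoderm markers 4 were lower, such as Eomes (-1.08) and Elf5 (-1.32), and 2 were higher, such as Cdx2 (1.41), and of the 8 primitive endoderm markers 3 were lower, such as Lama1 (-1.25), and 2 higher, such as Gata6 (0.58). With depth covariates 2 of 7 epiblast markers were higher, Pou5f1 and Tdgf1, and 3 of 8 primitive endoderm markers were lower with 0 higher. All 8 trophectoderm markers were then called, 4 lower and 4 higher, against 28.5% of all genes called in either direction. The summed epiblast markers were 297 to 897 CPM per twin library and 28.05 to 560 CPM per intact library. A whole blastocyst was measured as 1 library, so that fewer cells of a type and less RNA per cell cannot be told apart, and the part of these shifts in the differences of the stress response genes was not tested.

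Across embryos the 10 genes did not vary as 1 unit. After the mean of each kind and site was subtracted, the Pearson correlation of log2(CPM + 1) over 50 blastocyst embryos had a median of 0.20 over the 45 pairs of genes, with 4 pairs above 0.5. These were Atf4 with Trib3 (0.68), Chac1 with Psat1 (0.64), Asns with Psat1 (0.56) and Atf4 with Ddit4 (0.51), and the lowest value was that of Phgdh with Ddit4 (-0.35). Over the 55 2-cell embryos the median was -0.02, the highest value that of Trib3 with Psat1 (0.53) and the lowest that of Sesn2 with Slc7a11 (-0.43). Atf4 with Sesn2 (0.503) was the other of the 2 pairs above 0.5. This median includes pairs with Asns and Chac1, which were at 0 in 33 and 22 of the 55 embryos. Depth differed between libraries of 1 kind and was not removed. These values are therefore descriptions, and the part of depth in them was not tested. The gene most like each member over the 50 blastocyst embryos was Chchd2 for Atf4 (r = 0.90), Cebpb for Asns (0.83), Cars for Trib3 (0.79), Ola1 for Phgdh (0.79), Srgn for Chac1 (0.76), Nupr1 for Psat1 (0.72), Reep6 for Ddit3 (0.71), Ptges3 for Ddit4 (0.69), Dtnb for Slc7a11 (0.66) and Fblim1 for Sesn2 (0.59).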

How the data were processed

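RNA of single blastomeres and single blastocysts was amplified by SMART-Seq, and Nextera XT libraries were sequenced. The authors trimmed reads (Trimmomatic 039), aligned them with STAR 2.7.10b without strand to GRCm38 with GENCODE M23, and deposited whole-number counts per gene, without normalization, for 32285 genes in 125 blastomeres and 69 blastocysts. Every entry of these counts equalled that of the deposited matrix with collapsed duplicates, so the counts used here are those after collapsing. What collapsing did to the counts was not tested. Without molecular identifiers a count is not a molecule, and the total count per library limits precision.

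Groups, pairs and plates came from the labels. Embryos were the replicates, and p-values measure the spread between them, except in the agreement of twins and of sisters. There single libraries were fitted, and the p-value sets the spread between embryos against that within pairs. Pairs with at least 9500 detected genes in both blastomeres were kept. CPM and TPM (exon lengths of GENCODE M21) were computed here. Tests were edgeR 4.0.16 quasi-likelihood tests (TMM, filterByExpr, robust), tested on simulated data, with Benjamini-Hochberg adjustment. 95% intervals are estimates ± 1.96 SE. Alternatives were RLE factors, DESeq2 1.42.0, no filter, depth covariates, thinning, 1 twin alone, other sets of samples or pairs, no site or plate term, and the rank-sum test on TPM. Software was R 4.3.3, limma 3.58.1, Python 3.11.15, numpy 2.4.6, pandas 2.3.3 and matplotlib 3.10.9, with the seed 20241115. Named genes were the 10 members, up to 3 genes of each list with the smallest p in twin against intact blastocysts and up to 2 in each comparison with equatorial ICSI, markers, and 1 most correlated gene per member. The members and lists were chosen with earlier results of these data known. Promoter sequences are from RefSeq (GRCm38.p6).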

Additional observations from a re-analysis of the deposited data

Results flagged for a closer look

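Of 40 groups of 6 to 8 blastocyst embryos (10 genes in the twins of each site and in the ipsilateral intact blastocysts), 5 held 1 embryo far from the others by Dixon's test, while chance alone gives about 5% of groups. Atf4 reached 818 CPM in 1 ipsilateral intact blastocyst, with the next at 600 CPM, and 247 CPM in 1 equatorial twin embryo, with the next at 336 CPM. Psat1 was at 303 CPM in 1 contralateral twin embryo, with the next at 368 CPM. Slc7a11 was at 12.3 CPM in 1 ipsilateral twin embryo, with the next at 0.945 CPM, and at 1.65 CPM in 1 equatorial twin embryo, with the next at 0.596 CPM. In these last groups 5 of 7 and 3 of 6 embryos were at 0.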

How the results depend on the processing

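For the log2 fold changes of the 9 genes in twin against intact blastocysts, 88 of 99 values under alternatives kept direction and side of the threshold, 7 lost and 4 gained a call, and 0 changed sign. The number of genes called there was 7, and 4 with depth covariates. For contralateral against equatorial ICSI 79 of 89 values kept both, Psat1 gained a call in 5, and the number called fell from 2 to 0 on plate 2 alone. For ipsilateral against equatorial ICSI 80 of 90 did, and the number called fell from 2 to 1 with RLE factors or 48 pairs and to 0 with depth covariates, plate 1 alone or plate 2 alone. In the agreement of twins the number called rose from 0 to 1 with DESeq2 and to 5 of 10 without the filter on low counts. In that of sisters it rose from 3 to 5 with DESeq2 or without the filter and fell to 0 with all 62 pairs. The cause of these shifts was not tested. Plate 2 alone, chosen after seeing the data, changed the sign of uncalled values: Slc7a11 (-0.17), Phgdh (0.50) and Ddit4 (0.23) after contralateral ICSI, Trib3 (0.26) and Slc7a11 (-0.18) after ipsilateral ICSI, and Atf4 (0.050), Phgdh (1.28) and Ddit4 (0.39) between these. Chac1 had 0 counts there in equatorial and contralateral embryos and gave no value. Between contralateral and ipsilateral ICSI 7 other uncalled values changed sign: Atf4 (0.039, 48 pairs), Ddit3 (0.0099 in the rank-sum test, 0.032 without the plate term, 0.078 on plate 1 alone), Phgdh (0.10 with all 62 pairs, 0.24 with depth covariates) and Ddit4 (0.0053, 48 pairs). The rank-sum test on TPM called 3173 genes higher and 1707 lower in twins, against 1909 and 2058 in edgeR, and 774 higher and 1205 lower after contralateral ICSI, against 936 and 797. Over all genes the number called in twin against intact blastocysts was 3967, and 6385 without the filter. In the contralateral comparison with equatorial ICSI it was 1733, with 1104 for 48 pairs and 3930 without the filter. In the ipsilateral one it was 874, with 61 under depth covariates, 1362 in the rank-sum test and 2603 without the filter, and between contralateral and ipsilateral ICSI it was 0, with 1577 without the filter. For twin agreement it was 89, with 736 in DESeq2 and 927 without the filter, and for sister agreement 1263, with 3286, 4195 and, with all 62 pairs, 410. No paired analysis was possible because embryo numbers are not shared between the groups compared. Asns and Chac1 in blastomeres and Slc7a11 in twins had a median of 0 counts per library, so their values there are imprecise.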
